A study of Mus musculus with 9 samples.

Results

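The forkhead family was followed in Scx-GFP-positive forelimb cells of mouse embryos at 3 embryonic stages, E11.5 followed by E12.5 and E14.5, named by the day of gestation. Its members were taken as the genes on the array whose single annotated symbol is Fox followed by 1 letter and digits. The rule found 37 forkhead genes among 18193 genes with a single symbol, represented by 82 probe sets. Of these 37 genes, 21 exceeded the array-wide median signal of 90.6 on 3 or more of the 9 arrays, against 63.6% of all genes.

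All embryos shared a transgene, Scx-GFP, whose fluorescent protein marks cells that use the regulatory sequences of Scx, a transcription factor of tendon progenitors. The groups differ only in stage, with 3 arrays at E11.5, 3 at E12.5 and 3 at E14.5, lettered A, B and C. Forelimbs were dissociated with trypsin and sorted on GFP alone, so the cells are those with an active reporter and not a purified tendon lineage. The strain and the number of embryos per sample are not stated in the labels, and the labels do not tie the arrays to separate litters, so p-values measure only the spread between these samples.

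Forkhead proteins bind DNA through a winged-helix domain, and most of them recognise a short core motif with adenines in its centre. The subfamilies differ outside that domain. FOXC, FOXD and FOXF proteins pattern mesenchyme, FOXP proteins are mostly repressors, FOXO proteins are held in the cytoplasm by insulin and AKT signalling, and FOXM1 drives genes of mitosis. In the limb, Foxc1 and Foxc2 act in the early skeleton, and Foxp1 and Foxp2 are known in bone, cartilage and motor neurons.

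The forkhead genes called in the fit without pairing were higher at E14.5. Compared with E11.5, 6 of the 21 tested genes rose (Foxf2, Foxq1, Foxp1, Foxj2, Foxp2 and Foxn2) and 0 fell, against 22.9% of all 11575 tested genes called higher and 17.7% called lower. Compared with E12.5, 6 rose (Foxf2, Foxq1, Foxp1, Foxj2, Foxn2 and Foxk1) and 0 fell, against a background of 12.6% and 9.32%. Between E12.5 and E11.5, 0 forkhead genes were called in either direction by limma, against 3.11% of genes called higher and 0.441% called lower, and 4 had an unadjusted p under 0.05, against 16% of genes. limma's F-test found 7 genes with any difference among the stages, against 33.7% of all tested genes. A call is an adjusted p under 0.05 over all tested genes. With the arrays centred on their medians, which moved the median change of all genes to -0.20, Foxf2, Foxq1 and Foxp1 were still called against E11.5, and Foxj2, Foxp2 and Foxn2 were not. Against E12.5 the centring left Foxf2 and Foxq1, and 69.3% of all called genes were then higher, against 57.6% without it. With the array letters as a replicate block, Foxm1 was called lower at E14.5 in both comparisons (adjusted p = 0.0194 against E11.5 and 0.0414 against E12.5), and 7 genes were called higher against E11.5 and 6 against E12.5.

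Against E11.5 the share of forkhead genes called higher, 6 of 21, lay near the share of all genes, and against E12.5 it lay above it, a difference that was not tested. Foxq1 passed the signal filter through the 3 E14.5 arrays alone, and Foxf2 through these and 1 E11.5 array, so the filter in part fixed their direction in these counts. The median log2 change of the tested forkhead genes at E14.5 relative to E11.5 was 0.32, against 0.00 over all tested genes. The arrays of the 2 stages did not overlap for 9 genes that were higher and 1 that was lower at E14.5 (background 27.3% and 24.1%). Between E12.5 and E11.5 this held for 3 higher and 1 lower (background 15.8% and 7.75%), and between E14.5 and E12.5 for 6 higher and 1 lower (background 20.6% and 21.9%).

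**Figure D1:**
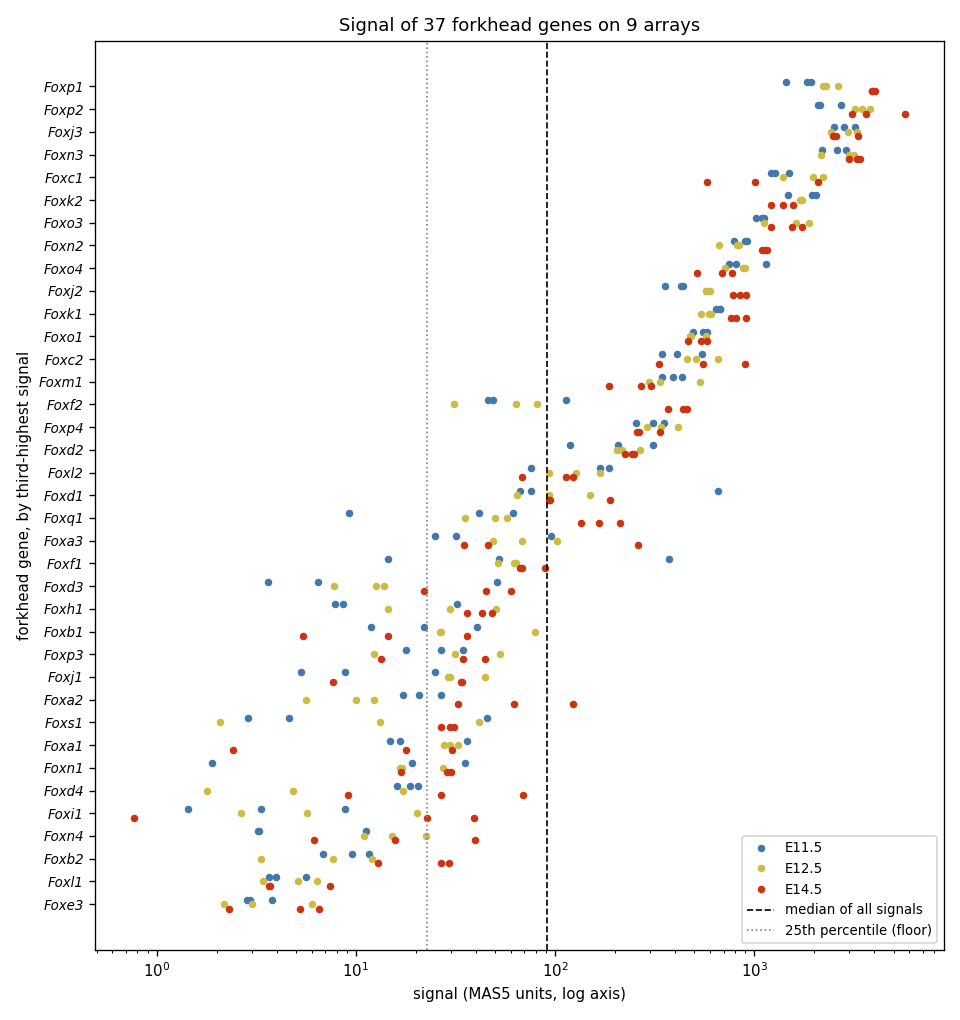
Signal of all 37 forkhead genes on the 9 arrays, on a log axis in MAS5 units, 1 point per array and coloured by stage, with the genes ordered by their third-highest signal. The dashed line is the median of all signals and the dotted line the floor used in the fit. 16 genes lie above the median on all 9 arrays, and signals of different genes do not compare their transcript levels.

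Of the 21 genes, 16 exceeded the median signal on all 9 arrays, and 9 of these lay above the 75th percentile (514) on every array. The other 5 passed on some arrays only: Foxl2 on 7, Foxd1 on 6, Foxf2 on 4, Foxq1 on 3 and Foxa3 on 3. Just above the limit were Foxa3, with a third-highest signal of 95.6, and Foxq1, with 135. Just below it were Foxf1, with 68.4, Foxd3, with 44.8, and Foxh1, with 42.9. The remaining 16 genes were not tested. Foxf1 and Foxa2 exceeded the median on 1 array each, and 14 genes did so on none, with signals of 0.770 to 79.0, of which 79 of 126 lay at or below the floor of 22.7 (the 25th percentile). Foxl1, a mesenchymal gene of the gut, belonged to this group, with 3.64 to 7.41 at E14.5 and 3.68 to 5.60 at E11.5. So did Foxp3, the factor of regulatory T cells, with 13.3 to 44.5 at E14.5 and 17.9 to 34.5 at E11.5.

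The genes with the largest change, Foxf2 and Foxq1, are direct neighbours on chromosome 13 in the RefSeq gene order, followed by Foxc1, which was not called. The start regions of Foxf2 and Foxc1 are shown because these neighbours fell on different sides of the test threshold. Both are from RefSeq (GRCm38.p6, plus strand, 250 bases before to 50 after the annotated start), at chr13:31625566-31625865 for Foxf2 and chr13:31806396-31806695 for Foxc1. Capitals mark matches to the E-box CANNTG, which basic helix-loop-helix factors such as Scx bind, and to CCAAT, each searched on both strands.

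Foxf2: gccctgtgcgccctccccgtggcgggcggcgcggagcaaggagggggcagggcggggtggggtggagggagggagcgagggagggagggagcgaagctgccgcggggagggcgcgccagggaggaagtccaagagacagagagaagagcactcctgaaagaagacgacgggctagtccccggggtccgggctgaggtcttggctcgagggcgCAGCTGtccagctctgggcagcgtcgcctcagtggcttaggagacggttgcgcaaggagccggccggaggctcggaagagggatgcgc

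Foxc1: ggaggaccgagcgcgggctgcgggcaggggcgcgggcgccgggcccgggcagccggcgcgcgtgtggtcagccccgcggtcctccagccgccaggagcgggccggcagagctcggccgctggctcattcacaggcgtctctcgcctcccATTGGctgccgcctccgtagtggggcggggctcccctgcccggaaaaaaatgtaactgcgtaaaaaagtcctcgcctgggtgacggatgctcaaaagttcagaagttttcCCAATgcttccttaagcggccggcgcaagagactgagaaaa

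The Foxf2 window held 1 E-box and no CCAAT, and the Foxc1 window held 2 CCAAT matches, 1 on each strand, and no E-box. The forkhead core TGTTTAC was in neither. Over all 32851 promoters of the same length, 72.3% held an E-box, 37.4% a CCAAT and 3.65% the forkhead core, so an E-box match is common. Both windows were rich in GC, with 71.3% and 27 CpG for Foxf2 and 67.3% and 32 CpG for Foxc1, against medians of 52.7% and 7 CpG. Of the 37 genes, 24 had a listed promoter (29 promoters), and 1 of these genes, Foxa1, held the forkhead core. A match describes these letters only.

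Foxf2, a regulator of mesenchyme around the gut, palate and brain vessels, measured 45.8, 113 and 48.8 on the E11.5 arrays A, B and C, 31.0, 63.9 and 81.3 on the E12.5 arrays and 458, 436 and 368 on the E14.5 arrays. Every E14.5 array lay above every earlier array, while E11.5 and E12.5 overlapped. It averaged 421 ± 47.1 at E14.5 and 69.2 ± 38.0 at E11.5 (SD, n = 3 each), a 6.62-fold difference (log2 change 2.73 ± 0.40 SE, limma adjusted p = 0.000727). Against E12.5, with a mean of 58.7 ± 25.6, the log2 change was 2.94 ± 0.40 (limma adjusted p = 0.00116). The change between E12.5 and E11.5 was -0.22 ± 0.40 (limma adjusted p = 0.852). Foxf2 at E12.5 differed from the midpoint of the other stages by -1.58 ± 0.35 log2 units, which was not called (limma adjusted p = 0.0891, with 0.769% of all genes called). The call rests on 1 probe set, since the other Foxf2 probe set stayed at 23.3 or below on all 9 arrays.

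Foxq1, known from hair and from the stomach lining, measured 9.19, 41.7 and 61.4 on the E11.5 arrays, 35.2, 57.6 and 50.1 on the E12.5 arrays and 166, 135 and 212 on the E14.5 arrays. The lowest E14.5 array lay above the highest of the earlier stages, and no E11.5 or E12.5 array reached the filter of 90.6, so this gene was tested only through the stage where it is high. It averaged 171 ± 38.8 at E14.5 and 37.4 ± 26.4 at E11.5 (SD, n = 3 each), a 4.34-fold difference (log2 change 2.12 ± 0.35 SE, limma adjusted p = 0.00123). Against E12.5 the log2 change was 1.85 ± 0.35 (limma adjusted p = 0.00559), and this call was lost without the floor (adjusted p = 0.0542). One E11.5 array was below the floor of 22.7, so the size depends on that floor, and it was 2.55 without a floor and 0.89 with a higher one, where the change against E12.5 was also 0.89. A second Foxq1 probe set, too dim to be tested, read 36.5 to 73.5 at E14.5 and 0.362 to 2.90 at E12.5, without overlap.

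Markers of several cell types were also called higher at E14.5 than at E11.5. Of 9 tendon markers 8 were called higher and 1 lower, of 10 cartilage markers 5 and 0, and of 9 muscle markers 4 and 1. The shares of all genes were 22.9% and 17.7%. Between E12.5 and E11.5 no tested endothelial or epithelial marker was called, with median log2 changes of 0.84 and -0.16. The summed signal of 8 endothelial markers was 1107 to 1480.1 at E14.5 and 294 to 597 at E11.5, and the 4 that passed the filter, largely through their E14.5 signal, were called higher (22.9% of all genes were), while the defining marker Pecam1 read 72.3, 13.7 and 64.2 at E14.5 and 11.2, 58.4 and 71.7 at E11.5. The summed signal of 9 epithelial markers was 1404.5 to 1742 at E14.5 and 1017 to 1122 at E11.5, with 3 of the 5 that passed the filter called higher (Krt5, Epcam and Cdh1), 1 called lower (Krt8), and Krt14 averaging 42.4 at E14.5 and 26.9 at E11.5. Their part in the forkhead changes was not tested. In sorted cells measured in bulk, more cells of a type and more RNA per cell cannot be told apart.

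**Figure D2:**
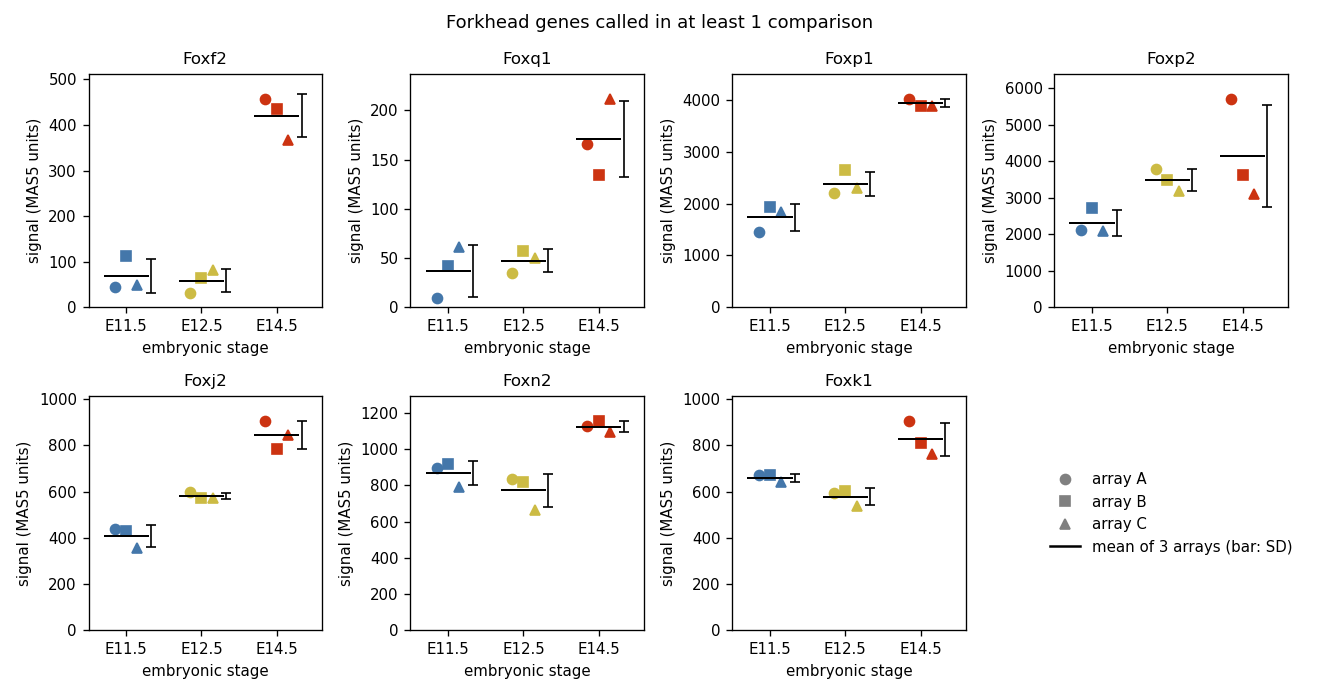
Signal of the 7 forkhead genes called in at least 1 comparison, in MAS5 units on axes that start at 0, by stage, with 1 point per array (circle A, square B, triangle C), the mean as a line and the SD over 3 arrays as a bar. In Foxf2 and Foxq1 the E14.5 points stand above all earlier ones, while Foxp1 and Foxj2 step up at each stage.

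The FOXP genes include 2 that were called. Foxp1, a repressor active in many embryonic tissues, measured 1444, 1928 and 1830.3 on the E11.5 arrays, 2212, 2642 and 2291 on the E12.5 arrays and 4017, 3878 and 3883 on the E14.5 arrays. No 2 stages overlapped. Foxp1 averaged 3926 ± 78.8 at E14.5 and 1734 ± 256 at E11.5 (SD, n = 3 each), a 2.28-fold difference (log2 change 1.19 ± 0.14 SE, limma adjusted p = 0.000231). Against E12.5 the change was 0.73 ± 0.14 (limma adjusted p = 0.00763), and E12.5 against E11.5 gave 0.46 ± 0.14 (limma adjusted p = 0.138). All 8 Foxp1 probe sets had a positive change at E14.5 relative to E11.5, between 0.45 and 1.37, and 6 of them were called, against 17.3% of all tested probe sets called higher. Relative to E12.5 all 8 were also positive but 3 were called. The share of all probe sets was not computed for that comparison, and 12.6% of genes were called higher in the fit per gene. The call of Foxp1 against E12.5 was lost with the mean of probe sets.

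Foxp2, the paralog known for neural circuits of speech and for lung and cartilage, measured 2126, 2736 and 2090.3 on the E11.5 arrays, 3786, 3482 and 3196 on the E12.5 arrays and 5717, 3619 and 3102 on the E14.5 arrays. Both later stages lay above E11.5 on every array, and they overlapped each other. Foxp2 averaged 4146 ± 1385 at E14.5 and 2317 ± 363 at E11.5 (SD, n = 3 each), a log2 change of 0.80 ± 0.22 (limma adjusted p = 0.0178). The change was 0.54 without E14.5 A (adjusted p = 0.0361), and the call was lost without E11.5 A (0.0560) or E11.5 C (0.0551). E12.5 against E11.5 gave 0.60 ± 0.22 (limma adjusted p = 0.222), and E14.5 against E12.5 gave 0.20 ± 0.22 (limma adjusted p = 0.546). Of 5 tested Foxp2 probe sets, 5 had a positive change at E14.5 relative to E11.5 and 4 were called. Foxp4, the third paralog on the array at a testable signal, averaged 286 ± 43.8 at E14.5 and 305 ± 47.8 at E11.5, a log2 change of -0.09 ± 0.19 (limma adjusted p = 0.732), and its 3 probe sets gave -0.23 to -0.09.

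**Figure D3:**
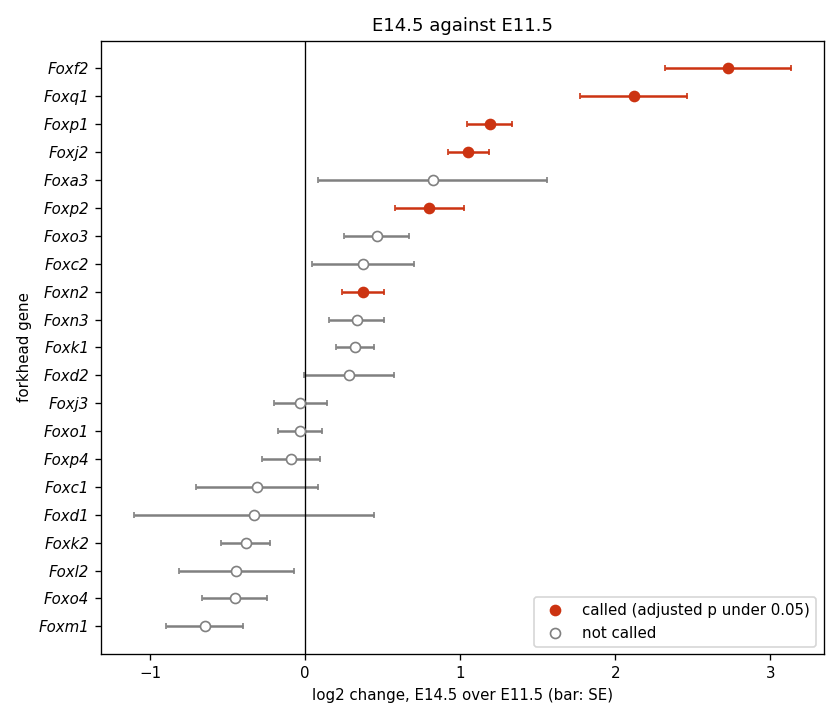
Log2 change at E14.5 relative to E11.5 of the 21 tested forkhead genes, with the SE as a bar and genes called at an adjusted p under 0.05 filled. The called genes run between 0.37 for Foxn2 and 2.73 for Foxf2, and the 15 open points include all 9 negative values.

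Of the FOXJ, FOXN and FOXK genes, Foxj2, Foxj3, Foxn2, Foxn3, Foxk1 and Foxk2 were above the median on all 9 arrays, and Foxj1, Foxn1 and Foxn4 were above it on none. Foxj2, an activator found in many tissues, measured 439, 430.0 and 355 on the E11.5 arrays, 596, 574 and 574 on the E12.5 arrays and 903, 784 and 845 on the E14.5 arrays. The 3 stages did not overlap. The log2 change at E14.5 was 1.05 ± 0.13 relative to E11.5 (limma adjusted p = 0.000255) and 0.54 ± 0.13 relative to E12.5 (limma adjusted p = 0.0177), and E12.5 against E11.5 gave 0.52 ± 0.13 (limma adjusted p = 0.0689). The call against E12.5 was lost without E12.5 B, E12.5 C or E14.5 A, with adjusted p up to 0.0578. Only 1 of 2 Foxj2 probe sets passed the filter. With the mean of probe sets the change against E12.5 was 0.25 (limma adjusted p = 0.224). Foxj3, which takes part in muscle and germ cell development, averaged 2787 ± 458 at E14.5 and 2838 ± 355 at E11.5, a change of -0.03 ± 0.17 (limma adjusted p = 0.904).

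Foxn2 measured 897, 919 and 792 on the E11.5 arrays, 835, 818 and 666 on the E12.5 arrays and 1126, 1154 and 1093 on the E14.5 arrays. The E14.5 arrays lay above all others, and E12.5 overlapped E11.5. The log2 change at E14.5 was 0.37 ± 0.13 relative to E11.5 (limma adjusted p = 0.0498) and 0.55 ± 0.13 relative to E12.5 (limma adjusted p = 0.0180). The first of these calls was lost when any of 8 of the 9 arrays was left out, all except E12.5 C, with adjusted p up to 0.147, and the second without E12.5 C (0.0679). Both rest on 1 of 2 Foxn2 probe sets and were lost with the mean of probe sets. Foxn3, a repressor linked to the cell cycle checkpoint, averaged 3215 ± 218 at E14.5 and 2567 ± 349.9 at E11.5, a change of 0.33 ± 0.18 (limma adjusted p = 0.161), with all 4 of its probe sets positive.

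Foxk1, a factor of muscle progenitors and of glycolysis, measured 672, 669.7 and 639.6 on the E11.5 arrays, 594, 603 and 537 on the E12.5 arrays and 903, 812 and 763 on the E14.5 arrays. E12.5 was the lowest stage and overlapped neither of the others. The log2 change at E14.5 was 0.51 ± 0.12 relative to E12.5 (limma adjusted p = 0.0160) and 0.32 ± 0.12 relative to E11.5 (limma adjusted p = 0.0613), and E12.5 against E11.5 gave -0.19 ± 0.12 (limma adjusted p = 0.493). With the array letters as a replicate block, the E14.5 against E11.5 change was called (adjusted p = 0.0489), as it was without a filter (0.0211) and with a stricter one (0.0466), and the call against E12.5 was lost without E12.5 C (0.0621). That call rests on 1 probe set, as only 1 of 3 passed the filter. With the mean of probe sets the change against E12.5 was 0.22 (limma adjusted p = 0.422). At E12.5 Foxk1 differed from the midpoint of the other stages by -0.35 log2 units and Foxn2 by -0.36 (limma adjusted p = 0.212 and 0.249), and of the 21 genes none was called in that comparison. Foxk2 averaged 1386 ± 172 at E14.5 and 1817 ± 298 at E11.5, a change of -0.38 ± 0.16 (limma adjusted p = 0.0781). The change of Foxk2 was -0.53 and called without E11.5 C (adjusted p = 0.0254). All 5 Foxk2 probe sets were lower at E14.5 than at E11.5, and 2 that do not stand for the gene were called (limma adjusted p = 0.0476 and 0.0185), the second of them also against E12.5 (0.0389).

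Ratios between 6 pairs of forkhead genes were compared within arrays, most of them setting a called gene against one that was not called, so their direction was known beforehand. The log2 ratio of Foxp1 to Foxp4 was higher at E14.5 than at E11.5 by 1.28 ± 0.11 (SE), that of Foxp2 to Foxp4 by 0.89 ± 0.18, that of Foxj2 to Foxj3 by 1.08 ± 0.16 and that of Foxk1 to Foxk2 by 0.70 ± 0.15. For the neighbours Foxf2 and Foxc1 the ratio was higher by 3.04 ± 0.64. In these 5 pairs the 3 E14.5 ratios were all above the 3 E11.5 ratios, which gives p = 0.1 in a two-sided exact permutation test, the smallest p that 3 arrays against 3 allow, and 0.12 after adjustment over the 6 pairs, so no pair could pass the threshold. The ratio of Foxn2 to Foxn3 differed by 0.04 ± 0.15 (exact permutation p = 0.8).

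**Figure D4:**
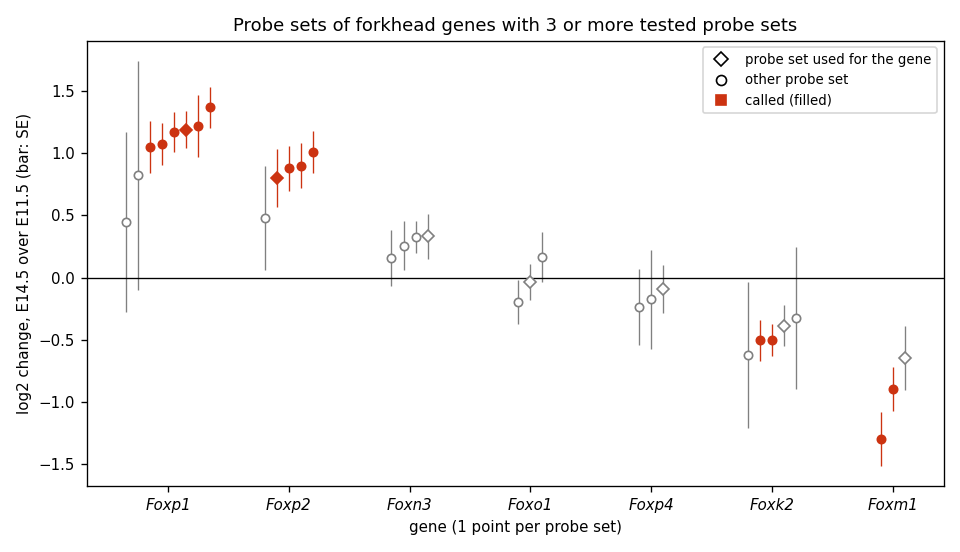
Log2 change at E14.5 relative to E11.5 of each tested probe set, for the 7 forkhead genes with 3 or more of them, with the SE as a bar. Diamonds are the probe sets that stand for the gene, and filled points were called in a fit of all 20885 probe sets above the filter. The Foxp1 and Foxp2 points are all positive, and the Foxp4, Foxk2 and Foxm1 points are all negative.

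Foxm1, which activates genes of the G2 and M phases, measured 346, 434 and 389.6 on the E11.5 arrays, 296, 334 and 534 on the E12.5 arrays and 186, 269 and 303 on the E14.5 arrays. The E14.5 arrays lay below the E11.5 arrays and overlapped those of E12.5. The log2 change was -0.65 ± 0.25 relative to E11.5 (limma adjusted p = 0.0641) and -0.60 ± 0.25 relative to E12.5 (limma adjusted p = 0.116), neither of which was called. With the array letters as a replicate block both were called (adjusted p = 0.0194 and 0.0414). All 3 tested Foxm1 probe sets were lower, and the 2 that do not stand for the gene were called at -0.89 and -1.30 (limma adjusted p = 0.00562 and 0.00241), against 13.9% of probe sets called lower. A further probe set, annotated to Foxm1 together with Tex52 and Pebp1, read 582, 491 and 410 at E14.5, against 1250.1, 1367 and 1144 at E11.5.

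Genes known as targets of FOXM1 were lower at E14.5. Of 14 tested genes of that list, 13 fell and 0 rose relative to E11.5, with a median log2 change of -1.16, against 0.00 over all genes and 17.7% of genes called lower. Aurka, a kinase of the mitotic spindle, averaged 767 ± 231 at E14.5 and 2311 ± 235 at E11.5 (log2 change -1.63 ± 0.21, limma adjusted p = 0.000325). Plk1, the polo-like kinase of mitotic entry, averaged 746 ± 199.6 at E14.5 and 2066 ± 113 at E11.5 (log2 change -1.50 ± 0.18, limma adjusted p = 0.000217). The mitotic kinesin Kif20a (-1.41 ± 0.24) and the spindle checkpoint kinase Bub1b (-1.38 ± 0.29) also fell, and the phosphatase Cdc25b (0.03 ± 0.22) was the gene not called. Relative to E12.5, 10 of the 14 fell, against 9.32% of all genes called lower. Between E12.5 and E11.5 none was called by limma, where 3.11% of all genes were called higher and 0.441% lower. Other factors also act on these genes, and the list describes expression, not FOXM1 activity.

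None of the 3 FOXO genes was called in any stage comparison by limma. Foxo1, the main FOXO protein of insulin response, averaged 528 ± 60.5 at E14.5 and 540.0 ± 44.0 at E11.5 (log2 change -0.04 ± 0.14, limma adjusted p = 0.867). Foxo3, an activator of stress resistance and cell death genes, averaged 1498 ± 271 at E14.5 and 1077 ± 51.8 at E11.5 (0.46 ± 0.21, limma adjusted p = 0.106). The E14.5 arrays of Foxo3, at 1742, 1546 and 1207, all lay above the E11.5 arrays, at 1119.9, 1092 and 1019. Foxo4, their X-linked paralog, averaged 657 ± 131 at E14.5 and 904 ± 215 at E11.5 (-0.45 ± 0.21, limma adjusted p = 0.113), and these arrays overlapped.

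FOXO proteins are controlled mainly after translation, so genes on both sides of them were counted. Of 13 tested genes upstream of FOXO, 3 rose and 2 fell at E14.5 relative to E11.5, with a median change of 0.07, counts near the shares of all genes (22.9% higher and 17.7% lower). Pik3r1, a regulatory subunit of PI3 kinase, rose to 1866 ± 309.5 at E14.5, against 514 ± 200.4 at E11.5 (log2 change 1.91 ± 0.27, limma adjusted p = 0.000511). Sgk1, a kinase that phosphorylates FOXO3, rose by 1.26 ± 0.30, while Skp2, a ubiquitin ligase subunit that targets FOXO1, changed by -0.70 ± 0.14 and the deacetylase Sirt1 by -0.61 ± 0.12. Of 15 tested FOXO target genes, 3 rose and 1 fell, with a median change of 0.02, against the same shares of all genes. The repressor Bcl6 averaged 396 ± 56.8 at E14.5 and 30.5 ± 21.2 at E11.5 and was called higher (limma adjusted p = 4.02e-05), with 2 of 3 E11.5 arrays below the floor, so that the size of its change is set by the floor and is not given. The atrophy ligase Fbxo32 rose by 1.69 ± 0.30 and the thioredoxin inhibitor Txnip by 1.51 ± 0.22, and the DNA damage gene Gadd45a changed by -1.10 ± 0.24. Neither list is set apart from all genes by these counts.

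Partner proteins of the FOXP and FOXK factors were also counted. Of 11 tested corepressor and partner genes, 6 fell and 0 rose at E14.5 relative to E11.5, with a median log2 change of -0.48, against 17.7% of all genes called lower, 22.9% called higher and a median of 0.00. Ctbp2, a corepressor, averaged 3204 ± 800.4 at E14.5 and 8366 ± 663 at E11.5 (-1.41 ± 0.19, limma adjusted p = 0.000445). Asxl1, a partner of the BAP1 deubiquitinase, changed by -1.03 ± 0.17 and the deacetylase Hdac1 by -0.74 ± 0.25. The scaffold Sin3a averaged 739.7 ± 162 at E14.5 and 1462 ± 159 at E11.5.

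Hedgehog signalling is known to act upstream of several Fox genes in mesenchyme, Foxf genes among them. Of 9 tested hedgehog genes, 2 rose and 1 fell at E14.5 relative to E11.5, near the shares of all genes (22.9% and 17.7%). Shh, the ligand of the posterior limb bud, averaged 26.3 ± 6.04 at E14.5 and 1019 ± 193 at E11.5 (log2 change -5.22 ± 0.35, limma adjusted p = 6.68e-06), with 1 E14.5 array below the floor, on which the size depends. Hhip, a target that binds the ligand, rose to 439 ± 96.0 at E14.5, against 96.3 ± 16.9 at E11.5 (2.18 ± 0.25, limma adjusted p = 0.000156), and the target factor Gli1 rose by 0.59 ± 0.20 (limma adjusted p = 0.0375). Ptch1, the receptor and a target itself, changed by -0.02 ± 0.21 (limma adjusted p = 0.961). Shh was already lower at E12.5, with signals of 68.5, 14.4 and 34.5 (-4.74 ± 0.35 relative to E11.5, limma adjusted p = 0.000562).

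Foxc1, which takes part in the early skeleton and in vessels, was not called in any comparison, and its arrays spread widely within E14.5. Its signals were 1492, 1271 and 1215 at E11.5, 1979, 1388 and 2218 at E12.5, and 2079, 1009.5 and 575 at E14.5. The log2 change at E14.5 was -0.31 ± 0.39 relative to E11.5 (limma adjusted p = 0.564) and -0.78 ± 0.39 relative to E12.5 (limma adjusted p = 0.185). Without E14.5 A the second value was -1.26 and was called lower (limma adjusted p = 0.0184). Foxc2, its paralog, had 897, 555 and 334 at E14.5 and 408, 545 and 344 at E11.5, a change of 0.37 ± 0.33 (limma adjusted p = 0.400), which was 0.02 without E14.5 A. The summed signal of 10 cartilage markers followed the same order of arrays at E14.5, at 69791 in A, 17686 in B and 8391 in C, against 16185 to 19502 at E11.5. Relative to E11.5, 5 of the 10 markers were called higher and 0 lower, against 22.9% and 17.7% of all genes. Their fold changes were mixed, between 0.498 for Sox9 and 23.3 for Cytl1. E14.5 A also stood apart in genes outside cartilage, such as Hspa1a (1989, at most 208 elsewhere) and Atf3 (1636, at most 300 elsewhere). The part of the cartilage signal, or of these genes, in the Foxc values was not tested.

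**Figure D5:**
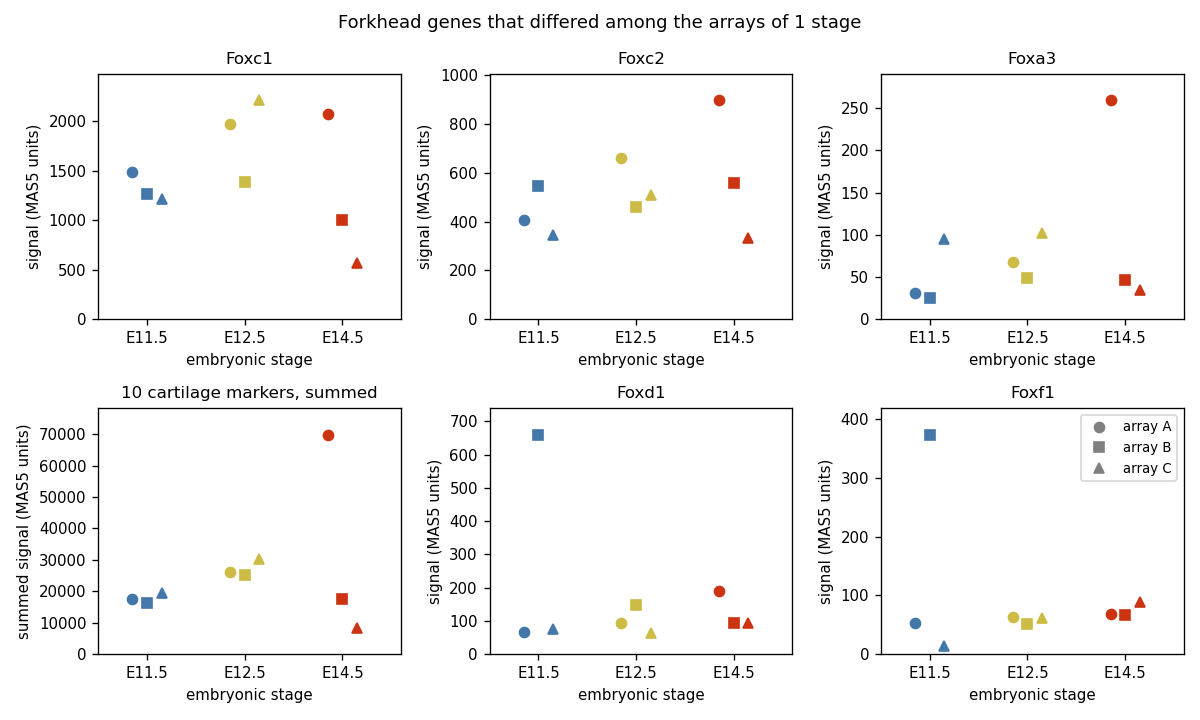
Signal of 5 forkhead genes and summed signal of 10 cartilage markers, in MAS5 units on axes that start at 0, by stage, with 1 point per array. At E14.5 array A is highest for Foxc1, Foxc2, Foxa3 and the cartilage sum, and at E11.5 array B is highest for Foxd1 and Foxf1.

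Foxd1, known from kidney stroma and the jaw, rested on 1 array. Its signal was 660.1 in E11.5 B and at most 189 in each of the other 8 arrays, and the log2 change at E14.5 relative to E11.5 was -0.33 ± 0.77 (limma adjusted p = 0.763) and turned to 0.74 without E11.5 B. Foxf1, the paralog of Foxf2, had 373 in E11.5 B and at most 89.2 elsewhere, and was not tested. Foxd2 averaged 239 ± 13.1 at E14.5 and 212 ± 95.0 at E11.5 (0.28 ± 0.29, limma adjusted p = 0.480). Foxl2, a factor of the ovary and of craniofacial tissue, averaged 101 ± 29.1 at E14.5 and 143 ± 59.2 at E11.5 (-0.45 ± 0.37, limma adjusted p = 0.372). Foxa3, a liver factor, had 259 in E14.5 A and at most 102 elsewhere (0.82 ± 0.74, limma adjusted p = 0.411), and its change turned to -0.08 without E14.5 A.

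Tendon markers were compared between the stages. With no GFP-negative sample among the arrays, they do not check the identity of the sorted cells. Scx had signals of 8692 to 14952 at E14.5 and 14811 to 21828 at E11.5 which overlapped by 1 array, and was called lower at E14.5 (log2 change -0.81 ± 0.22, limma adjusted p = 0.0164), and the other 8 tendon markers rose. Tnmd, a marker of differentiated tendon cells, had 6005 to 9398 at E14.5 and 7.80 to 42.0 at E11.5, so that marker was near the floor at E11.5. The summed signal of 9 muscle markers was 8041 to 10845 at E14.5 and 3454 to 5602 at E11.5, with 4 called higher and 1 lower. Of the tested blood and neural markers, 1 of 2 and 1 of 4 rose, with 1 lower in each. For all of these marker counts, the shares of all tested genes were 22.9% called higher and 17.7% called lower. The number of genes more than 1 log2 unit above all other arrays was 193 in E14.5 A and between 4 and 85 in the others.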

How the data were processed

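Cells sorted for Scx-GFP from mouse forelimbs were profiled on Affymetrix Mouse Genome 430 2.0 arrays, 3 per stage. The deposited values are intensities on a linear scale, which the authors computed as MAS5 signals (Affymetrix Expression Console 1.1 is the software named per the submitters' processing notes). Each array's mean without the lowest and highest 2% of signals was 500, so no further normalization was applied. Median signals were 68.7 to 118, and the number of arrays limits the precision. Within each stage the median rose from A to B to C. It was 68.7, 79.6 and 106 at E11.5, 69.5, 94.5 and 106 at E12.5, and 81.5, 91.1 and 118 at E14.5. Detection flags were not used here. Probe sets with 1 annotated symbol were used, with the highest mean log2 signal per gene (_x_at only where no other existed). Signals below 22.7 were set to that floor, and genes above 90.6 in at least 3 arrays were tested (11575). Stage differences come from 1 limma fit of the 9 arrays (limma 3.58.1, R 4.3.3) with 6 residual degrees of freedom, two-sided, with Benjamini-Hochberg adjustment. Results are means ± SD of signals and log2 changes ± SE. Fold differences are the log2 changes put on a linear scale, not ratios of the mean signals. The fit was tested on simulated data.

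The members, gene lists and tests were chosen with earlier results of these data known. Named are every forkhead gene called, a set list of family members whether called or not, those nearest the filter, and up to 4 called genes per list. Other genes were named after their values were seen. Deviations of same-letter arrays correlated at 0.133 to 0.520 between E11.5 and E12.5 and at 0.121 to 0.310 between E12.5 and E14.5. Between E11.5 and E14.5 they correlated at -0.00516 to 0.313. Arrays of different letters reached 0.122 (E11.5 C with E12.5 B) and 0.175 (E12.5 B with E14.5 C). The labels give only the letters, so whether these mark pairs is not known, and the reported fit did not pair the arrays. Alternatives covered the floor, filter, probe sets, scaling, the letters as a replicate block, the prior, array weights, a 3' to 5' covariate and leaving out arrays. The fit per probe set, the midpoint comparison and the fit without E11.5 B and E14.5 A were added after seeing the data.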

Additional observations from a re-analysis of the deposited data

How the results depend on the processing

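Over all alternatives, no forkhead gene called in the reported fit changed direction: of 310 values, 266 kept the call and 44 lost it. Of 1313 values of genes not called, 24 were called. The rises of Foxf2 and Foxq1 at E14.5 relative to E11.5 kept their call in all 23 alternatives in which they were tested. Most of these kept the signal filter, which Foxq1 passed only and Foxf2 mainly through E14.5 arrays, so the count is no separate evidence. Genes called higher at E14.5 relative to E11.5 numbered 3 with the mean of probe sets and 3 with median centring, which lowered the median change of all genes to -0.20, and 4 to 6 when 1 array was left out. Genes called lower numbered 1 with the mean of probe sets, quantile normalization, the letters as a replicate block, a trended prior and only the 6 arrays compared (Foxm1 in each), 1 with the 3' to 5' covariate (Foxo4), 1 without the 3 arrays of letter A (Foxl2) and 0 to 1 when 1 array was left out. Relative to E12.5, genes called higher numbered 0 with the mean of probe sets, 2 with median centring, 3 without letter A and 3 to 6 when 1 array was left out, the 3 being without E12.5 C. Genes called lower numbered 1 with quantile normalization or the replicate block (Foxm1), 1 without E11.5 B and E14.5 A together (Foxc1) and 0 to 1 when 1 array was left out. Between E12.5 and E11.5, 1 gene was called higher with a stricter filter or array weights (Foxj2) and 1 without E11.5 B and E14.5 A (Foxp2). Genes differing among the stages numbered 3 with the mean of probe sets, 2 with median centring, 4 without letter A and 4 to 7 when 1 array was left out. With the 75th percentile as limit, 13 forkhead genes were above it in at least 3 arrays. With the mean of probe sets 17 forkhead genes passed the filter. Foxf2 and Foxq1 were tested neither there nor with the stricter filter at the 75th percentile. Over all genes, median centring gave 1275 called higher and 1070 lower at E14.5 relative to E11.5 (2646 and 2045 as reported), 635 and 281 relative to E12.5 (1463 and 1079) and 156 and 21 for E12.5 relative to E11.5 (360 and 51). The causes were not tested. The replicate block changed no forkhead call other than those of Foxm1 and Foxk1. Low signals, as for Foxq1, limit the precision of a change.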

Other observations

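E11.5 B held 31 genes more than 1 log2 unit above every other array, Foxd1 and Foxf1 among them. Others, chosen after their values were seen, were Dlx1 (653, at most 9.96 elsewhere), Lhx8 (1550.1, at most 219 elsewhere) and Barx1 (542, at most 207 elsewhere), which are known from the jaw and pharyngeal arches. Fendrr, a noncoding RNA known as a neighbour of Foxf1, had 131 in that array and at most 55.0 elsewhere. Their source was not tested.

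E14.5 A held 193 such genes, with Foxa3 as the forkhead member. Cartilage genes stood among them, such as Snorc (1839, at most 119 elsewhere), Matn3 (2415, at most 200.1 elsewhere) and Acan (5409, at most 554 elsewhere). The heat shock genes Hspa1a (1989, at most 208 elsewhere) and Hspa1b (5642, at most 691 elsewhere) were also among them, and Foxd4 was the forkhead gene of this kind in E14.5 B, at 68.9.

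A probe set annotated to Foxo3 together with Gm38485 had signals of 114, 11.9 and 59.3 at E14.5 and 67.3, 19.8 and 94.9 at E11.5, and was not counted as a member.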
